A study of Coryphaena hippurus with 21 samples.

Results

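MicroRNA miR-21 was followed through 21 small RNA libraries of whole mahi-mahi (Coryphaena hippurus) larvae. Every name with the family number miR-21 was taken, whatever its species prefix, letter or arm, and 1 of the 329 names in the 6 count tables met this rule. That name was ola-miR-21, where ola stands for medaka. It stood once in each of the 6 tables and had a count above 0 in all 21 libraries, so its reads were not divided between several names of the family there. No second arm and no paralog of miR-21 was listed.

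MicroRNAs are short RNAs that guide a protein complex to messenger RNAs and lower their stability or translation. In mammals miR-21 is made in many cell types, rises with growth and tissue repair, and acts on growth inhibitors such as PDCD4 and Sprouty. In zebrafish blood flow induces miR-21 in the endocardium where the heart valves form, and its loss disturbs valve formation. RNA of whole larvae holds all organs together, so a heart signal cannot be read apart from that of other tissues, and fewer cells of a type cannot be told apart from less RNA per cell.

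The larvae were 48 h post fertilization (hpf) and came from spawns of captured broodstock. Fertilized eggs were put into beakers of seawater without oil (control, 0%) or with HEWAF, a preparation in which oil is mixed into seawater at high energy. Slick HEWAF was used at 0.5%, 1% and 2%, which are called slick L, slick M and slick H. Source HEWAF was used at 0.125%, 0.25% and 0.5%, which are called source L, source M and source H. Slick oil had been skimmed from the sea surface in the Deepwater Horizon spill, whereas source oil is the oil of the well itself. Water was not renewed, and RNA came from pooled samples. Each of the 7 groups had 3 libraries. The labels do not say whether those came from separate beakers, so p-values measure the spread between these libraries. Titles of the second oil read mass, which was read as source oil, the only other oil that the design text gives.

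The libraries held 3157670 to 8736995 counts. On the first principal component over 98 names, 7 libraries stood apart from the other 14, namely all of source M and source H and library L3 of source L. These 7 lay between 5.0 and 9.71 on that component and the other 14 between -5.02 and -2.18. Library names such as C4 or L3 are the deposited column names, and L, M and H libraries of the oils are told apart by the oil.

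By median level over the 21 libraries ola-miR-21 was the third most abundant of the names common to all tables. Its raw counts ran from 138003 in source H library H3 to 429848 in source L library L1, a 3.11-fold range that includes the depth of the libraries. Within its own table it held rank 3 to 5 in every library. Its share of all counts was 4.66%, 4.79% and 4.55% in the slick L libraries L4, L5 and L6, and 3.72%, 4.41% and 4.29% in slick M libraries M4, M5 and M6. Slick H libraries H4, H5 and H6 gave 3.86%, 4.36% and 4.44%. The slick libraries thus lay within about 1 percentage point of each other.

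The shares in source oil were more scattered. They were 5.83%, 5.38% and 5.35% in source L libraries L1, L2 and L3, 3.99%, 4.50% and 6.21% in source M libraries M1, M3 and M5, and 3.57%, 4.41% and 4.37% in source H libraries H1, H2 and H3. The control libraries stand in all 6 tables, which list different names, and their shares were at most 4.59% in C4, 5.71 to 6.59% in C5 and 5.11 to 5.65% in C6. Counting error was far smaller than these differences, since the widest 95% Wilson interval of a share reached 0.0248 percentage points to either side. That interval covers counting error only, because reads without molecular identifiers are not independent molecules.

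More abundant than miR-21 were ssa-miR-206-5p (miR-206 is a skeletal muscle miRNA), with a median of 333844 CPM (counts scaled to library size) over the 21 libraries, and aca-miR-9-5p, of a neural family, with 283767 CPM. The median of ola-miR-21 was 58218 CPM. The next name, cgr-miR-26a, had a median of 29407 CPM and stood at 0 in 1 library. CPM here are counts scaled with the TMM method of edgeR, which sets aside the names that differ most between libraries, over the 107 names that stood in all 6 tables and passed the filter on low counts. Levels of different miRNAs were compared as counts per mature RNA, and ligation preferences of the library kit can favour one sequence over another.

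**Figure D1:**
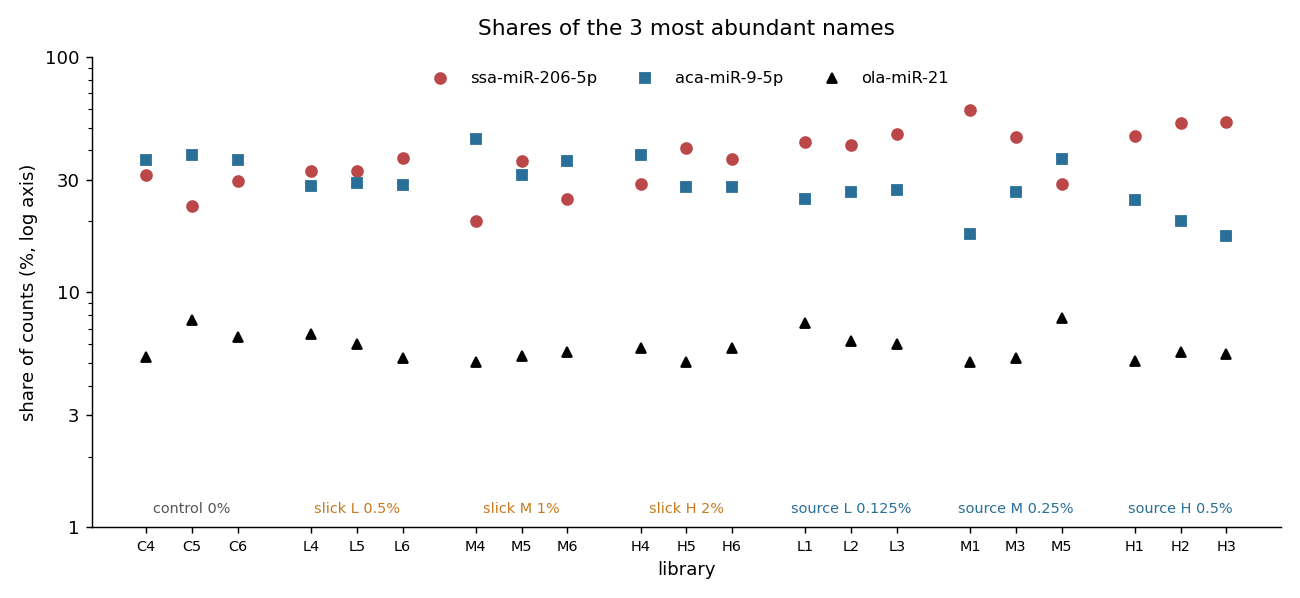
Share of the counts of the 110 names found in all tables (percent, log axis) for the 3 most abundant names in each of the 21 libraries, grouped by exposure. The share of ola-miR-21 stays in a narrow band between 5.04% and 7.79%, while ssa-miR-206-5p ranges from 20.1% to 59.2% and is highest in source oil libraries.

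The level of miR-21 differed less between replicates than that of most names. The spread was compared over the 98 names that passed the filter on low counts and had counts above 0 in all 21 libraries. Among them ola-miR-21 had the smallest pooled standard deviation within groups, 0.13 on the log2 CPM scale. The median was 0.44 over all 98 names and 0.47 over the 20 most abundant. The next smallest was 0.15, for dre-miR-153b-5p, of a family found in neurons. Under 5 other scalings the standard deviation of ola-miR-21 was 0.11 to 0.20 and held rank 1 to 3 of the 98 names from the smallest. One of these scalings left miR-21 itself out of the scaling factors and gave 0.13, again the smallest. Within single groups the value ran from 0.03 in slick L to 0.21 in source M, and it lay below the median of all names in each of the 7 groups.

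Its level also ranged less between groups than that of most names. The highest and lowest of the 21 libraries differed 1.99-fold, and the highest and lowest group means 1.66-fold, which is 0.73 on the log2 scale against a median of 1.52 over the 98 names. There 12 names had a smaller range of group means, as rank 13 from the smallest shows. For comparison ssa-miR-206-5p had a standard deviation within groups of 0.47 and a range of group means of 1.42, and tgu-miR-126-5p, of an endothelial family, 0.84 and 3.17.

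**Figure D2:**
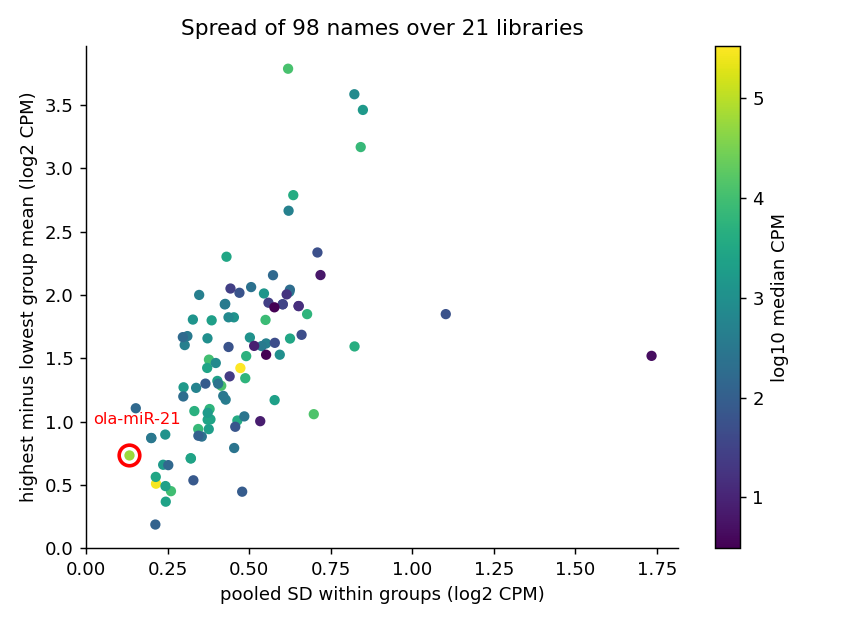
Pooled standard deviation within groups (horizontal axis, log2 CPM) and highest minus lowest group mean (vertical axis, log2 CPM) of 98 names, coloured by median CPM on a log10 scale. These names passed the filter on low counts and were counted in all 21 libraries. The circled point is ola-miR-21, which lies furthest to the left at 0.13 and low on the vertical axis at 0.73.

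On the common scale the control libraries C4, C5 and C6 stood at 56156, 62943 and 61083 CPM. The slick libraries were all lower. Slick L gave 54083, 54409 and 52188 CPM, slick M 49412, 43390 and 44215 CPM, and slick H 50845, 48307 and 50776 CPM. Each of the 9 slick libraries lay below the lowest control library, and 2 of the 3 slick M libraries lay below all slick H libraries. The source libraries were higher and more scattered. Source L gave 86275, 68202 and 73959 CPM, source M 75565, 58925 and 58764 CPM, and source H 58218, 62574 and 73402 CPM. All 3 source L libraries lay above the highest control, and the source M and source H groups overlapped with control.

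The order of the group means was source L at 76145 ± 9233 CPM (SD, n = 3), source H at 64731 ± 7819, source M at 64418 ± 9654, control at 60061 ± 3507, slick L at 53560 ± 1199, slick H at 49976 ± 1446 and slick M at 45672 ± 3265. Neighbours from source L down to control overlapped, as did slick H and slick M. Control and slick L did not overlap, nor did slick L and slick H. Scaling each library by its total counts instead gave the order source L, control, slick L, source M, slick H, source H and slick M. All neighbours in that order overlapped. Total counts, here and below, are summed over the names tested in a comparison, here the 107 common names. Shares of all counts had means of 5.52% in source L, 4.90% in source M, 4.67% in slick L and 4.22% in slick H. They were 4.14% in slick M, 4.12% in source H and, depending on the table, 5.15 to 5.58% in control. The place of source M and source H relative to control therefore rests on how the libraries are scaled. The source L mean lay above control under both scalings, although these groups overlapped with total counts. In the table of source L the mean share was 5.52%, against 5.22% for control there.

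**Figure D3:**
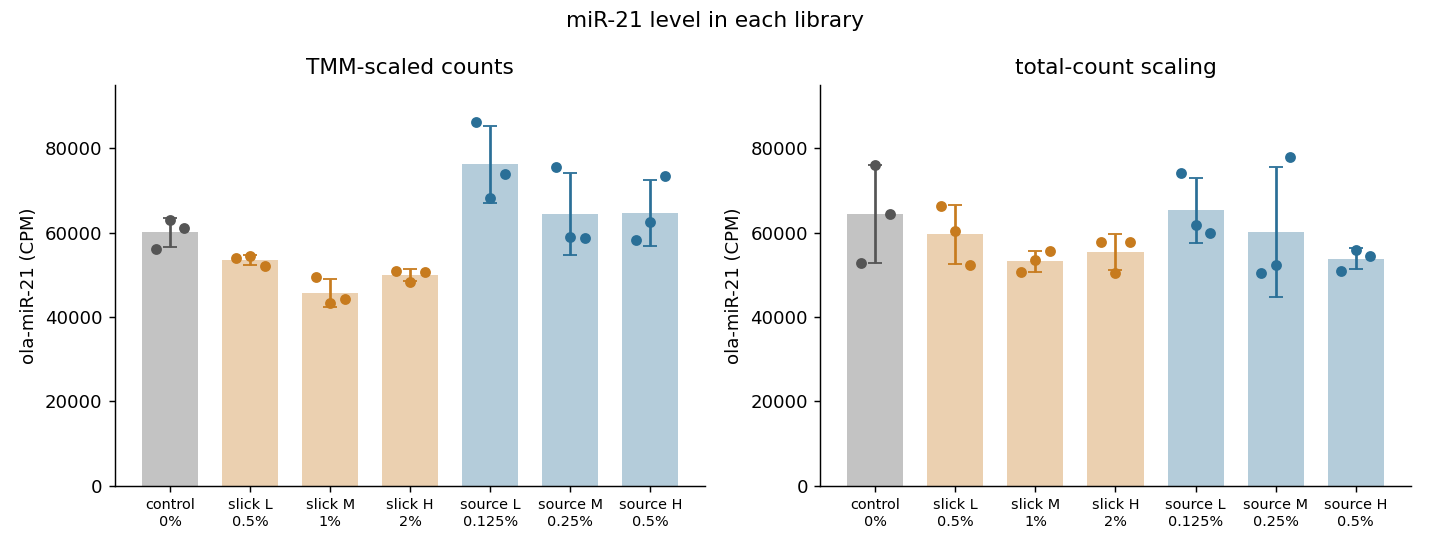
Level of ola-miR-21 (CPM) for each library (points), with the group mean (bars) and SD (error bars), after TMM scaling on the left and total-count scaling on the right. On the left all 9 slick libraries lie below the 3 controls and all 9 source libraries above the slick ones; on the right most groups overlap, except source L with slick M, slick H and source H.

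Tested over all 7 groups, miR-21 differed between at least some of them. The F test of edgeR's quasi-likelihood fit gave an adjusted p of 0.0213 (Benjamini-Hochberg over 107 names), with a range of fitted group values of 0.74 on the log2 scale. This was no unusual result, because 62.6% of the names tested were called at an adjusted p under 0.05 and 47 of the 107 had a smaller p. The median range of the 107 names was 1.60. The call was lost with total-count scaling (range 0.30, adjusted p = 0.747), with the 2 most abundant names left out of the library sizes (range 0.56, adjusted p = 0.0529), without slick M library M6 (adjusted p = 0.0623), without slick H library H5 (0.0519) and without source L library L1 (0.079). Without the 7 libraries that stood apart, which leaves 5 groups and 2 libraries of source L, the range was 0.91 with an adjusted p of 0.0154, and 38 of 107 names were called. DESeq2 called 67.3% of the names over the 7 groups, and miR-21 with them.

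The first question put to each exposure was whether miR-21 differed from unexposed larvae. In no exposure did edgeR call ola-miR-21, and the fitted changes were small. In this paragraph and the next ones CPM come from the table of the exposure itself, which lists more names than the common scale, so values differ from those above. The lowest slick dose gave 49858, 45923 and 49326 CPM against 45071, 56085 and 54153 CPM in control, and the groups overlapped here although they did not on the common scale. The log2 fold change was -0.10 ± 0.15 (SE, adjusted p = 0.854, edgeR), where edgeR called 14.5% of 159 names and DESeq2 30.2%, and 42.8% had groups that were apart. The 95% interval of the fold ran from 0.712 to 1.23, and the change was -0.27 without control C4 and -0.01 without control C5.

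At the middle slick dose miR-21 was lower in every library. The 3 slick M libraries M4, M5 and M6 held 45367, 39899 and 40934 CPM, and the 3 controls 52233, 58566 and 56002 CPM. These groups were apart, like those of 18.9% of the 159 names tested. The log2 fold change was -0.40 ± 0.15 with an unadjusted p of 0.0449 in edgeR's quasi-likelihood test, and it missed the threshold after adjustment (adjusted p = 0.414), where 1.26% of names were called. The interval of the fold was 0.578 to 0.991. DESeq2 gave nearly the same change, -0.41 ± 0.10, with an adjusted p of 0.000301, and called 10.1% of names. The authors' deposited table, for which the submitters' processing notes name DESeq2, lists -0.41 and an adjusted p of 4.87e-05 for this name.

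The highest slick dose lay between the other slick doses. Slick H libraries H4, H5 and H6 held 44283, 42871 and 48233 CPM and the controls 43443, 58341 and 52169 CPM, so that control C4 fell among the exposed libraries. The log2 fold change was -0.19 ± 0.16 (adjusted p = 0.646, edgeR). Of 158 names edgeR called 10.1% and DESeq2 24.1%, and 36.1% had groups that were apart. The 95% interval of the fold of miR-21 was 0.659 to 1.17, and the change was -0.31 without control C4 and -0.08 without control C5. The authors' deposited tables list log2 changes of -0.19 with an adjusted p of 0.247 for slick H and -0.08 with 0.669 for slick L. A slope on the slick concentration over 12 libraries was -0.12 ± 0.09 log2 units per percent (adjusted p = 0.471, edgeR), where edgeR called 5.47% of slopes and DESeq2 12.5%. The mean was lowest at 1% and not at 2%, with groups that overlap, and departure from a straight line was not tested.

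Source oil at its lowest dose gave the highest miR-21 of all groups. Source L libraries L1, L2 and L3 held 67310, 55106 and 63193 CPM, and the controls 42625, 50965 and 49498 CPM. These groups were apart as well, like those of 28.9% of 152 names. The log2 fold change was 0.38 ± 0.17 (unadjusted p = 0.0820, adjusted p = 0.369, edgeR), and 0% of names were called in this comparison by edgeR, although 24 had an unadjusted p under 0.05. DESeq2 called the name at 0.41 ± 0.14 (adjusted p = 0.0260) together with 17.1% of all names. The authors' deposited table lists 0.42 with an adjusted p of 0.00238. With total-count scaling the change was 0.09 ± 0.19 (adjusted p = 0.95, edgeR). Beside it, source L held 518308 ± 58149 CPM and control 269229 ± 71446 CPM of ssa-miR-206-5p on the common scale (SD, n = 3). What part this had in the total-count value was not tested.

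At the middle and the highest source dose miR-21 was close to control in most libraries. Source M gave 61270, 50799 and 51408 CPM against 46897, 53935 and 50423 CPM, and source H gave 43667, 48140 and 56030 CPM against 42723, 46706 and 44743 CPM. In each of these groups 1 library, M1 of source M and H3 of source H, lay above the rest. The log2 fold changes were 0.11 ± 0.14 for source M (adjusted p = 0.684, edgeR) and 0.14 ± 0.16 for source H (adjusted p = 0.703, edgeR). In source M edgeR called 24% and DESeq2 44.7% of 150 names, and 54% had groups that were apart. In source H edgeR called 9.38% and DESeq2 38.8% of 160 names, and 50% had groups that were apart. The 95% interval of the fold was 0.835 to 1.40 for source M and 0.827 to 1.47 for source H. The change in source M ran from 0.01 without its library M1 to 0.21 without control C5. The sign is not settled for either dose: total-count scaling gave -0.15 for source M and -0.30 for source H, and source H stood at -0.02 without control C4 and at -0.01 without source H library H3. The slope on the source concentration was -0.59 ± 0.45 log2 units per percent (adjusted p = 0.398, edgeR), where edgeR called 16.5% of 121 slopes and DESeq2 31.4%. It was -0.09 without source L library L1 and -0.15 when the 2 most abundant names were left out of the library sizes. The authors' deposited tables for source M and source H list 114 and 111 names, and ola-miR-21 is not among them. The highest unadjusted p they list is 0.49 and 0.498 (DESeq2 per the submitters' processing notes). Why the name is absent was not tested.

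**Figure D4:**
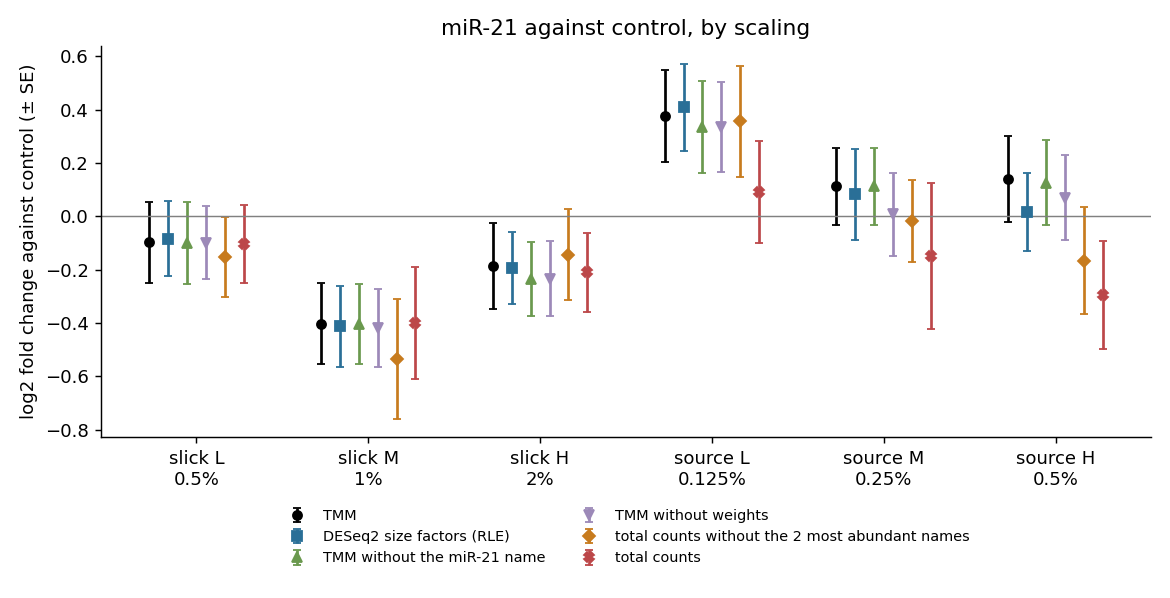
Log2 fold change of ola-miR-21 against control (vertical axis, ± SE from edgeR) for each exposure under 6 ways of scaling the libraries. The slick values lie below 0 under all 6, source L lies above 0 under all 6, and source M and source H fall below 0 with total counts, with or without the 2 most abundant names. Each fit used the names of the table of that exposure. On the common scale the means of source M and source H stayed above control when the 2 most abundant names were left out.

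The oils were then compared directly. Over all doses the 9 slick libraries held 49736 ± 3904 CPM (SD) and the 9 source libraries 68432 ± 9663 CPM on the common scale. The highest slick library stood at 54409 CPM and the lowest source library at 58218 CPM, so the oils did not overlap. Of the 107 names 4.67% separated the oils in this way. The mean difference was -0.45 on the log2 scale, with a p of 4.11e-05 in the two-sided exact permutation test over libraries (9 against 9), the smallest that this test can give, and 0.000123 after adjustment over the 3 pooled comparisons. The doses differ between the oils, and each set of 9 pools 3 doses. The test treats the 9 libraries of an oil as exchangeable, although slick L and slick M, for example, did not overlap. Its p can therefore be too small. Source columns mostly carry other numbers than slick and control columns. Any set of libraries that these numbers might mark cannot be told apart from the oil.

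This difference depends on the scaling of the libraries. With total counts the slick and source means were 56051 and 59751 CPM, the difference was -0.08 and the permutation p was 0.372. Beside it stands ssa-miR-206-5p, which took 20.1 to 40.9% of the counts of the common names in the slick libraries and 28.8 to 59.2% in the source libraries. With ssa-miR-206-5p and aca-miR-9-5p left out of the library sizes the difference was -0.37, and the exact permutation p was 8.23e-05. With miR-21 left out of the TMM factors it was -0.45 (exact permutation p = 4.11e-05), and without the 7 libraries that stood apart, which leaves source L libraries L1 and L2, it was -0.63 (exact permutation p = 0.0364, 9 against 2, the smallest this test gives with 55 arrangements).

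The other names that separated the oils on the common scale, chosen after their values were seen, were dre-miR-153b-5p and ssc-let-7i, also lower in slick oil, and efu-miR-27b and oan-miR-458-5p, which were higher. The let-7 family times development, miR-153 is found in neurons and miR-27b in blood vessels. With total-count scaling 4.67% of names separated the oils too, and of the names just given only oan-miR-458-5p was among them.

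The slick libraries pooled were lower than control. All 9 lay below the 3 controls, a difference of -0.27 on the log2 scale (exact permutation p = 0.00909, two-sided, 9 against 3, the smallest this test can give, and 0.0136 after adjustment), and 13.1% of the 107 names separated these groups. With total counts, where 12.1% of names did so, the difference was -0.19 and the permutation p was 0.145. With shares of all counts it was -0.28 (exact permutation p = 0.0455, not adjusted). The source libraries pooled lay at 0.18 above control (exact permutation p = 0.191), with 5 of 9 above the highest control, where 15% of names separated the groups. Without the 7 libraries that stood apart it was 0.35 (exact permutation p = 0.2, 2 against 3 libraries, the smallest this two-sided test can give). With total counts this difference was -0.11 (exact permutation p = 0.455). These tests likewise treat libraries of different doses as replicates of an oil.

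Pairs of single groups gave no call for miR-21 with edgeR. Slick L and source H share the nominal 0.5%, and their levels in the names common to both tables were 48349 ± 803 and 52140 ± 10984 CPM (SD, n = 3 each), a log2 difference of -0.11 ± 0.19 (adjusted p = 0.707, edgeR). The interval of this fold was 0.665 to 1.29, which leaves room for a difference in either direction. All names together had a median of -0.11 in this comparison, the same as miR-21. Of 139 names edgeR called 11.5% and DESeq2 41%, and 49.6% had groups that were apart. At the lowest doses slick L at 46213 ± 625 CPM was apart from source L at 70371 ± 9876 CPM, like 25% of 132 names. The log2 difference was -0.61 ± 0.17 (unadjusted p = 0.0156, adjusted p = 0.316, edgeR), where 0% of names were called and 15 had an unadjusted p under 0.05. DESeq2 called it with an adjusted p of 0.00434 among 11.4% of names.

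The middle and highest doses went the same way. Slick M at 38900 ± 2938 CPM and source M at 61051 ± 8219 CPM were apart, like 42.5% of 127 names, and differed by -0.65 ± 0.24 (adjusted p = 0.120, edgeR, 11% of names called). DESeq2 gave -0.57 with an adjusted p of 0.0141 and called 36.2%. Slick H at 42743 ± 2548 CPM and source H at 53650 ± 3884 CPM did not overlap either, like 45.7% of 138 names, and differed by -0.33 ± 0.15 (adjusted p = 0.196, edgeR, where edgeR called 13% of names and DESeq2 34.1%). With total counts slick H was higher than source H, at 0.09. All names together lay at a median of -0.20 for slick M against source M and -0.28 for slick H against source H, so miR-21 at the highest doses was near the middle of all names.

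Other miRNAs of the endothelium, valve and smooth muscle were followed in the same tables. The list was drawn up from families known in vessels and valves (miR-23, miR-24, miR-27, miR-126, miR-143, miR-145, miR-218, miR-221 and miR-222), with earlier results of these data known. In slick L 4 of its 15 members rose and 0 fell, 3 names of miR-23 and 1 of miR-126, with a list median of 0.15 against 0.07 over all names. Of all 159 names there 13 rose and 10 fell. The endothelial tgu-miR-126-5p rose by 1.79 ± 0.39 on the log2 scale (adjusted p = 0.0452, edgeR) and oar-miR-23b by 1.81 ± 0.18 (adjusted p = 0.00554), beside -0.10 for miR-21. In slick H the same 4 names of 18 rose and 0 fell, where 10 of 158 names rose and 6 fell, with tgu-miR-126-5p at 1.64 ± 0.23. The list median in slick H was 0.09, against 0.06 over all names. The 3 names of miR-23 belong to 1 family and held similar levels in slick L, 536, 537 and 480 CPM. They are not independent members, so both counts overstate how many families rose. In source M, where 16 of all 150 names rose and 20 fell, 0 of 16 rose and 1 fell, which was tgu-miR-126-5p at -1.53 ± 0.15 (adjusted p = 0.00447, edgeR). The list median in source M was nevertheless 0.55, against 0.32 over all names. In slick M, source L and source H no member of this list passed. The list medians in these groups were 0.20, 0.32 and 0.68, against 0.05, -0.005 and 0.17 over all names.

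Of connective tissue and fibrosis miRNAs (miR-29, miR-140, miR-199 and miR-214), 2 of 5 fell in slick L, both names of miR-214, and none passed in the other 5 exposures. These counts and those that follow stand beside the 14.5% of all names called in slick L, 10.1% in slick H, 24% in source M and 9.38% in source H, and counts this small are not set apart from those shares. The connective tissue list medians were -0.62, -0.01 and -0.23 in slick L, M and H, against 0.07, 0.05 and 0.06 over all names. They were -0.55, 0.27 and -0.51 in source L, M and H, against -0.005, 0.32 and 0.17. Of muscle and heart miRNAs (miR-1, miR-133, miR-206, miR-208 and miR-499) only ggo-miR-499a, known from slow and heart muscle, passed. It fell in slick L (-1.33 ± 0.13, 1 of 6), slick H (-1.51 ± 0.30, 1 of 6) and source M (-0.95 ± 0.19, 1 of 4). The list medians went the other way, at 0.18, 0.49 and 0.74, against 0.07, 0.06 and 0.32 over all names. White blood cells are rich in miR-21 in mammals. Of their other miRNAs (miR-142, miR-146, miR-150, miR-155 and miR-223) 1 of 5 fell in source M, tgu-miR-155-5p at -1.58 ± 0.24 (adjusted p = 0.0125, edgeR), and none passed elsewhere. This name was scarce, at 5.46 CPM in source M and 16.3 CPM in control. The list median in source M was 0.56, against 0.32 over all names. It was -0.84, -0.23 and -0.78 in slick L, M and H, against 0.07, 0.05 and 0.06 over all names. In source L and H it was -0.17 and 0.69, against -0.005 and 0.17. The red blood cell name ssa-miR-144-3p fell in slick L and in slick H (-1.29 ± 0.16 in the latter). The red blood cell list had only 1 name tested per exposure, and it was not tested in source M. The log2 change of this list was also below 0, without a call, in slick M (-0.70), source L (-1.51) and source H (-2.59). The fall was therefore not particular to slick oil in direction. Of the neural list (miR-9, miR-124, miR-128 and miR-137) 1 of 8 fell in slick L and 1 of 8 in source H. Both times this was oha-miR-9-4-5p, a scarce name. It held 5.97 CPM in slick L and 2.44 CPM in source H, against 13.678 and 11.997 CPM in control. In source M 2 of 7 rose, ola-miR-124-5p at 1.29 ± 0.23 and ssa-miR-137-5p at 1.74 ± 0.35. The neural list median was -0.33 in slick L, against 0.07 over all names. In source H this median was 0.39, opposite to the called name, against 0.17 over all names. In source M it was 0.95, against 0.32. What part changes in these cell types had in the level of miR-21 was not tested.

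The names whose pattern over the 21 libraries was most like that of miR-21 were found by Pearson correlation of log2 CPM over 97 other names. All points share the libraries and their scaling, so the coefficients are descriptive. The highest were ola-miR-430a (r = 0.66), which clears maternal messenger RNAs in zebrafish, ssa-miR-206-5p (0.66), ssc-let-7i (0.63), mse-let-7a (0.62) and ola-miR-731 (0.61), of a cluster known in teleosts. The lowest were ccr-miR-722 and ssa-miR-722-5p, which had the same values (-0.69), and ola-miR-148 (-0.67). With total-count scaling ola-miR-430a remained the most alike at 0.47, while ssa-miR-206-5p became the least alike at -0.30. After the group means were taken out ola-miR-430a was again first, at 0.66. The likeness of the other names depended on these choices. With group means out ssc-let-7i was at -0.15, and with total counts mse-let-7a was at -0.26, ola-miR-731 at 0.32, ola-miR-148 at 0.077 and both miR-722 names at 0.012.

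The level of ola-miR-430a moved little between groups, as that of miR-21 did. It held 2026 ± 302 CPM in control, 1952 ± 303 in slick L, 1969 ± 553 in slick M, 1900.0 ± 90.2 in slick H, 2326 ± 389 in source L, 2691 ± 438 in source M and 2412 ± 260 in source H (SD, n = 3). Its slick means lay below and its source means above the control mean, with spreads that overlap. The name ola-miR-148 held 6798 ± 1134 CPM in control and 3182 ± 176, 4343 ± 984 and 3431 ± 811 CPM in source L, M and H. Its slick means of 4741 ± 787, 6320 ± 1525 and 6609 ± 2349 CPM in slick L, M and H were also below control.

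**Figure D5:**
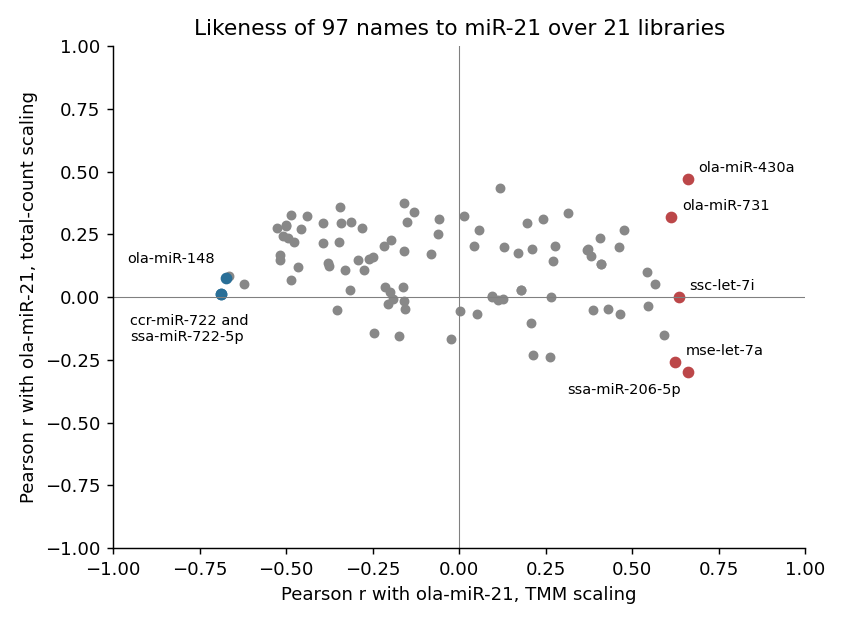
Pearson r of log2 CPM with ola-miR-21 over the 21 libraries for 97 names, after TMM scaling (horizontal axis) and total-count scaling (vertical axis). The 5 most alike names on the horizontal axis are red and the 3 least alike blue; ola-miR-430a is high on both axes at 0.66 and 0.47.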

How the data were processed

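Per the labels' protocols, libraries were made from pooled larvae with a NEBNext small RNA kit. The authors deposited 6 tables of read counts per mature miRNA name, each holding 3 exposed and the same 3 control libraries. Their deposited result tables hold mean normalized signal per group, a score (difference of means, unused), log2 fold changes and p-values with adjustment; the submitters' processing notes name DESeq2. The aligner, counter and genome were not given in the sources used here. Columns were joined to groups, not single samples, since their numbers do not follow the titles.

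Of names on several lines (17 extra lines) the highest count was kept, and 6 blank control cells were filled from another table. Counts were tested with edgeR 4.0.16 in R 4.3.3 (TMM, filterByExpr with minimum count 10 and total 15, quasi-likelihood test, Benjamini-Hochberg over all names tested, threshold 0.05). The SE was the size of the log2 change divided by √F. Pooled groups were compared by exact permutation (scipy 1.17.1). Alternatives were DESeq2 1.42.0, other scalings and filters, a replicate block and leaving out each library; scalings without miR-21 or without weights and fits without the 7 libraries that stood apart were chosen after seeing the data. The edgeR fit was tried on simulated data for slick L against control only. The simulated spread was fixed for all names and not estimated from these libraries, so it does not test the other comparisons. Named were miR-21, the names nearest to it in abundance, the 5 most and 3 least alike, and called members of the lists. Members and lists were chosen with earlier results of these data known.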

Additional observations from a re-analysis of the deposited data

Results flagged for a closer look

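Pooled over doses and on the TMM scale, the oils differed from each other in a direct test. The level of ola-miR-21 was lower in slick than in source libraries by a mean of -0.45 on the log2 scale (-0.452 before rounding), with 9 of 9 slick libraries below all 9 source libraries on the TMM scale and an exact permutation p of 4.11e-05. It was -0.08 with total counts (exact permutation p = 0.372). Both tests treat libraries of different doses as replicates of an oil, so their p can be too small. At the shared nominal 0.5%, slick L against source H gave -0.11 (adjusted p = 0.707, edgeR), the same as the median of all names. That fit used the names common to the tables of slick L and source H, not the common scale. On the common scale slick L and source H did not overlap, with a fold of 0.831 for slick L over source H. With total counts they overlapped, and this pair was not tested alone on the common scale. Any set of libraries that the column numbers might mark cannot be told apart from the oil. Single libraries within groups of 3 were not tested as outlying.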

How the results depend on the processing

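Of 16 miR-21 results, those against control for slick L and slick H and both concentration slopes kept their direction and side of the threshold under all alternatives run. DESeq2 called slick M (-0.41), source L (0.41), slick L against source L (-0.56) and slick M against source M (-0.57), which edgeR did not; the cause was not tested. Total counts reversed source M (-0.15), source H (-0.30), slick L against source H (0.22), slick H against source H (0.091) and all source libraries against control (-0.11), and ended the calls over the 7 groups (0.295), for slick against control (-0.19) and for slick against source (-0.081). Leaving the 2 most abundant names out of the library sizes reversed source M (-0.018), source H (-0.17), slick L against source H (0.059) and slick H against source H (0.030), and ended the 7-group call (0.56, adjusted p = 0.0529). The reversals came from fits on the names of each comparison. On the common scale this setting left the means of source M (211486 CPM) and source H (186187 CPM) above control (183535 CPM). There slick L (159595 CPM) and slick H (166727 CPM) lay below source H. The sign therefore depended on the set of names as well as on the scaling. With shares of all counts, slick against control was -0.28 (exact permutation p = 0.0455, not adjusted). Source against control was -0.14 (exact permutation p = 0.473) and slick against source -0.14 (exact permutation p = 0.164). Shares compared in these tests rest on different sets of names, because the tables list different names.

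Leaving out single libraries gave -0.023 to 0.22 for source H, -0.245 to 0.060 for slick L against source H (above 0 without H3) and 0.62 to 0.87 over the 7 groups. Of 147 such values 141 kept direction and side. Counts of names called moved more: DESeq2 called 15 to 72 names per comparison where edgeR called 0 to 67. Control and slick columns carry the same numbers, and source columns share numbers among themselves. Of 9 same-numbered pairs of control and slick 2 had a correlation over 0.1, and 1 of 9 slick libraries correlated best with the control of its number; of 7 such pairs among source groups 3 had one over 0.1. The numbers are therefore not taken as pairs. With the replicate block miR-21 stood at -0.09, -0.40 and -0.18 in slick L, M and H and the slopes at -0.12 (slick) and -1.03 (source, -0.59 without the block), none called, and the counts of names called fell from 23, 2, 16, 7 and 20 to 2, 0, 0, 0 and 0. Over the 7 groups the block gave 0.601 (adjusted p = 0.439, edgeR), without a call, and 10 names were called instead of 67. In this fit and in the source slope only source M library M5 links source libraries by number to the others. The block there nearly coincides with source oil against the other libraries. The lost call therefore cannot tell whether the result depends on the numbers. No paired analysis was possible for source groups against control or for slick against source groups because these pairs share fewer than 2 numbers, and the pooled permutation tests were run without the numbers. The lowest miR-21 count was 138003.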

Other observations

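The name ranked below miR-21, cgr-miR-26a, stood at 0 in slick M library M5 and took 0.0664% of the counts of the common names in slick H library H4, against 1.83 to 6.79% in the other libraries. Another name of the miR-26 family, aca-miR-26-5p, was among the names tested for the slope on source concentration. Whether reads were divided between names of this family was not tested. The names ccr-miR-722 and ssa-miR-722-5p had the same values in every library.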
